A study of Mus musculus with 15 samples.

Results

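Thymocytes that had received the signal for positive selection (PostDP) were compared with CD4+CD8+ thymocytes that had not (PreDP), on 6 of the 15 arrays of a study of T cell maturation in the mouse thymus. The members were the 3 arrays labelled PostDP and the 3 labelled PreDP. PostDP cells were sorted as CD69+TCRβ+ and PreDP cells as CD69-TCRβ-, both from the thymus of young adult B2m-/- mice on the C57BL/6 background. The labels state no gate on CD4 or CD8 and none against other cells for these sorts. The missing β2-microglobulin was common to both groups. Per the labels, it leaves MHC class II as the route to selection, so that the selected cells are bound for the CD4 lineage. The other 9 arrays held CD4 single-positive thymocytes named SM&M1 and M2, from Rag2GFP mice, and Tak1-deficient SM&M1 cells, from Tak1f/fCD4Cre mice, and were outside this comparison. Samples were labelled as biological replicates. Whether each sample was a separate animal or a pool is not stated. The p-values here reflect only the variation among these samples, part of which may be technical. By the Y-linked gene Eif2s3y, given below, replicate 2 differed in sex from the other replicates, so the samples did not all come from the same animals.

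CD4+CD8+ thymocytes carry a newly assembled αβ T cell receptor and die within days unless that receptor binds a self peptide on an MHC molecule of the thymic cortex. Binding of moderate strength starts positive selection: the cell shows CD69, raises its receptor, stops recombining its receptor genes and begins the choice between the CD4 and CD8 lineages. Calcium, the MAP kinases and protein kinase C carry the signal to transcription factors of the NFAT, EGR and REL families. Before selection, the population holds blasts that still divide after the pre-T cell receptor checkpoint as well as small resting cells.

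All levels are given as log2(signal + 16) of 1 probe set per gene on a mouse expression array, so that 4 is the floor of the scale and a difference of 1 is a 2-fold change. Differences are PostDP minus PreDP. The added 16 understates the changes of dim genes. The deposited signals of every array had a trimmed mean of 500.0, and their median was 107.9 to 113.0 on the PostDP arrays and 80.5 to 109.8 on the PreDP arrays, with PreDP replicate 1 the lowest. Arrays of the same group correlated at 0.972 to 0.977 (PostDP) and 0.956 to 0.976 (PreDP), and arrays of different groups at 0.876 to 0.916. Cd69, whose protein was the sorting gate, was at 12.97, 13.39 and 13.47 in PostDP and 9.04, 9.06 and 9.19 in PreDP. Transcripts of both coreceptors were well above the array medians on all 6 arrays. Cd8a was at 12.75, 12.88 and 12.51 in PostDP and 13.98, 14.001 and 13.81 in PreDP, and Cd4 at 11.74, 11.26 and 11.42 in PostDP and 12.78, 12.56 and 12.59 in PreDP. B2m was at 10.17, 10.10 and 10.03 in PostDP and 9.78, 9.55 and 9.68 in PreDP, so its probe set gave signal in both groups of these B2m-/- mice. Where the probe set lies relative to the deletion is not given in the sources used here, so it is no check of the genotype. The Y-linked gene Eif2s3y was at 11.33 in PostDP replicate 2 and 11.73 in PreDP replicate 2, and at or below 4.40 on the other 4 arrays, so replicate 2 was male in both groups.

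PostDP cells had higher levels of 1146 genes and lower levels of 1277 genes among 10657 tested, which is 10.8% higher, 12% lower and 22.7% called in either direction (limma, adjusted p under 0.05). With each array centred on its own median, which moved the median change of all genes to -0.15, the split was 647 higher and 1260 lower. Without PostDP replicate 2 the count of higher genes was 735, and without PostDP replicate 3 that of lower genes was 784. Changes of at least 2-fold were called in 478 genes that rose and 585 that fell, and changes of at least 4-fold in 154 that rose and 159 that fell. The groups did not overlap in 2091 of the 10657 tested genes with PostDP higher and in 2262 with PostDP lower. A lack of overlap between 3 and 3 arrays was thus common and does not by itself mark a gene out. The share called was 52.2% of tested surface molecules, 42.8% of transcription factors, 30.4% of metabolic genes and 25.6% of chromatin genes, beside the 22.7% of all genes. The lists were chosen with earlier results of these data known, so these shares and their order may partly reflect that choice. In these bulk samples, fewer cells of a kind and less RNA per cell cannot be told apart.

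**Figure D1:**
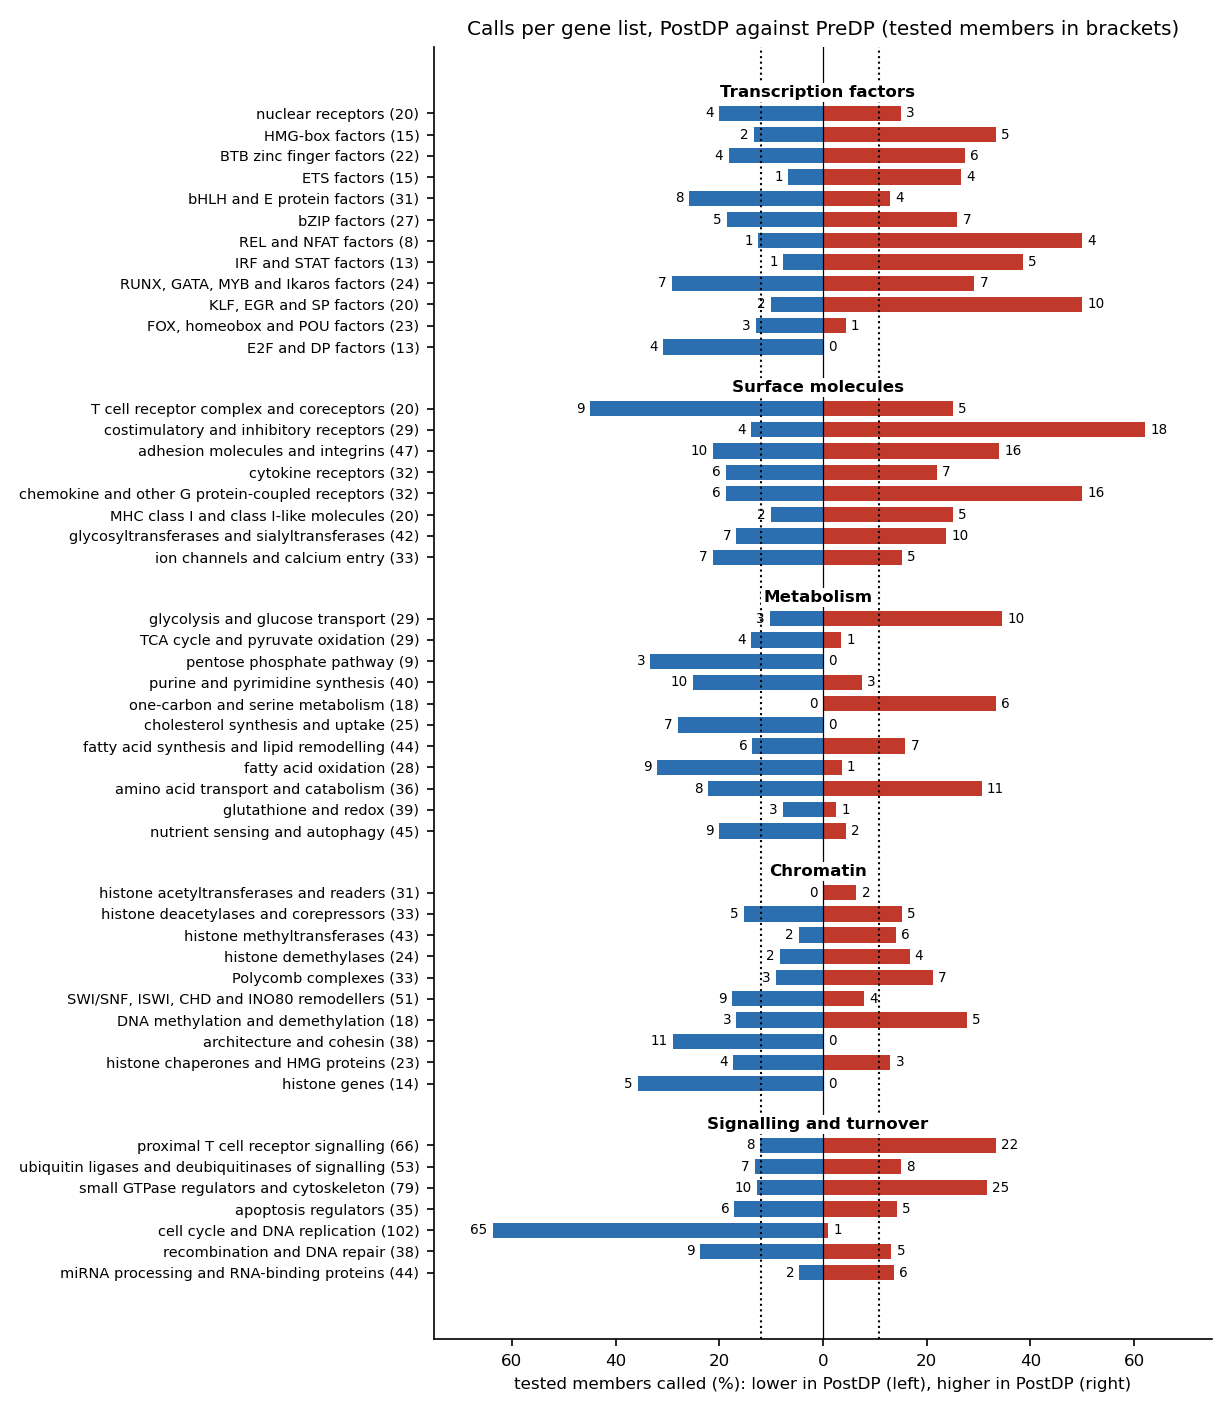
Share of the tested members of each gene list called lower (left, blue) or higher (right, red) in PostDP than in PreDP, in percent, with the number of called members at the end of each bar and the number tested in brackets. The dotted lines mark the shares of all tested genes, 12% lower and 10.8% higher. Costimulatory and inhibitory receptors have the longest bar to the right, with 18 of 29 higher, and cell cycle genes the longest to the left, with 65 of 102 lower.

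Among transcription factors, 285 of 301 listed genes were measured and 229 tested, of which 56 were higher (24.5%, beside 10.8% of all genes) and 42 lower (18.3%, beside 12%). Their median change was 0.12, against -0.00134 over all genes tested. Members of the families that carry the receptor signal and of the lineage-choice families were among those that rose. E2F, Notch, circadian and MXD genes were among those that fell. Genes named beyond the largest changes of each list are given with a 95% interval and were picked after their values were seen.

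Of the 20 KLF, EGR and SP factors tested, 10 rose and 2 fell (7 rose and 4 fell with arrays centred on their medians, and 4 fell with the replicate number as a block or without PreDP replicate 1). Beside the EGR genes and their NAB corepressors, these included the serum response factor Srf, with a change of 0.69 (95% interval 0.30 to 1.07), and its coactivator Mrtfa, with a change of 0.55 (95% interval 0.21 to 0.90). Klf9, known as a hormone-responsive repressor, changed by 1.497 (95% interval 1.10 to 1.90). Klf3, a repressor that recruits CtBP, was at 11.08, 10.97 and 10.85 in PostDP and 12.43, 12.68 and 12.85 in PreDP. The arrays of the groups lay more than 1 log2 unit apart, and the gene fell by 1.68 ± 0.15 (SE), adjusted p = 2.59e-04. Klf2, which later opens the way out of the thymus, had a difference of 0.07 (95% interval -0.34 to 0.47) and did not pass.

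Of the 8 REL and NFAT factors tested, 4 rose and 1 fell. Nfatc1, a calcineurin-driven NFAT gene, was at 11.62, 12.09 and 12.05 in PostDP and 9.83, 9.83 and 9.86 in PreDP. It rose by 2.08 ± 0.16 (SE), adjusted p = 1.17e-04. Nfatc3, an NFAT gene known for its part in the double-positive stage, moved the other way. It was at 11.53, 11.17 and 11.34 in PostDP and 12.96, 12.94 and 13.02 in PreDP and fell by 1.63 ± 0.14 (SE), adjusted p = 2.01e-04. Nfkb2, the precursor of p52 in the alternative NF-κB pathway, was at 9.69, 10.37 and 10.09 in PostDP and 8.52, 8.36 and 8.43 in PreDP. Rel, the c-Rel subunit, was at 8.53, 8.09 and 8.19 in PostDP and 6.44, 7.02 and 6.58 in PreDP. Neither gene overlapped between the groups, and they rose by 1.61 ± 0.19 (SE) and 1.59 ± 0.20 (SE). Rela, the main subunit of the canonical pathway, had a difference of 0.32 (95% interval 0.03 to 0.62) and did not pass.

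Promoter windows of the called EGR and REL family genes are shown where the window holds the motif of the gene's own family. Among the named genes searched, this was the case for 3 genes. Genes on the chromosome that carries Egr1 and Nfatc1 were left out of this search. Their absence here therefore says nothing about their windows. The printed windows come from RefSeq (build GRCm38.p6, 250 bases before to 50 after the start of the first listed transcript). Capitals mark GTGGGCG, the EGR motif, in Egr2, and the NF-κB motif (GGG, any 2 bases, then TTTCC) in Nfkb2 and Rel, on either strand. Egr2 lies at chr10:67535249-67535548 on the plus strand, Nfkb2 at chr19:46304487-46304786 on the plus strand and Rel at chr11:23770920-23771219 on the minus strand.
Egr2: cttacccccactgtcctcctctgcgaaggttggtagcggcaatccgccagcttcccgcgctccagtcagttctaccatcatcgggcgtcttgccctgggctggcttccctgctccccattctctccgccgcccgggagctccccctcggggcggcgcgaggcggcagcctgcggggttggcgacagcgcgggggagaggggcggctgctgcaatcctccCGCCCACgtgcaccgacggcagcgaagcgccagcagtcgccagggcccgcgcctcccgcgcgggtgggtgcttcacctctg
Nfkb2: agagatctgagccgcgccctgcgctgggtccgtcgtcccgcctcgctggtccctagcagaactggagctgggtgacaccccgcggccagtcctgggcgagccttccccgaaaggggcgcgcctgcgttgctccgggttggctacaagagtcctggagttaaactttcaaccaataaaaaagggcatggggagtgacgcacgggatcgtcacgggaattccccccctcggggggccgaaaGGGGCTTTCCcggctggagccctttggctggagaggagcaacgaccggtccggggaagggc
Rel: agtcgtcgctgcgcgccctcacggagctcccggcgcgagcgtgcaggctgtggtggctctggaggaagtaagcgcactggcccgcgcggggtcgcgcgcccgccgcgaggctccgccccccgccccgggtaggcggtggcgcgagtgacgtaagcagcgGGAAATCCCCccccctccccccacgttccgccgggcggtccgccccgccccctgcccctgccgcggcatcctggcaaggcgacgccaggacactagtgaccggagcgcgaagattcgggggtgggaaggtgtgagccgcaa
The EGR motif stood in the windows of 17.3% of the 930 genes that rose and 13.3% of the 1045 that fell, beside 14.6% of the 8701 tested genes and 8.04% of all 27025 genes with a window. The NF-κB motif stood in 1.83% of those that rose and 1.44% of those that fell, beside 1.55% of tested genes and 1.62% of all. Such matches are letters in a window and no measure of binding.

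Several factors known for their part in lineage choice were among the called genes. Gata3, needed for CD4 development, was at 12.73, 12.71 and 12.84 in PostDP and 10.72, 10.73 and 10.69 in PreDP, and rose by 2.05 ± 0.12 (SE), adjusted p = 3.82e-05. Zbtb7b encodes ThPOK, the factor that commits thymocytes to the CD4 lineage. It was at 8.76, 9.28 and 9.69 in PostDP, against 6.92, 6.90 and 7.03 in PreDP, values close to the array medians of 6.59 to 6.97. Runx3, the opposing CD8 lineage factor, changed by 0.90 (95% interval 0.55 to 1.25), with 8.08 ± 0.17 in PostDP and 7.19 ± 0.15 in PreDP (SD, n = 3 each). Tox, an HMG-box protein required for CD4 lineage cells, was at 12.83, 12.63 and 13.16 in PostDP and 9.58, 10.42 and 10.53 in PreDP. Its relative Tox2 was at 11.91, 11.92 and 12.001 in PostDP and 8.30, 8.04 and 8.66 in PreDP and rose by 3.61 ± 0.17 (SE). Tox3 went the other way and fell by 1.43 ± 0.13 (SE). Lef1, a partner of β-catenin with a part in CD4 lineage choice, rose by 1.31 ± 0.18 (SE). In all, 5 of the 15 HMG-box factors tested rose and 2 fell, or 3 and 1 with the mean of probe sets.

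Bach2, a repressor with BTB and leucine zipper domains that restrains effector programs, was at 12.35, 12.07 and 12.02 in PostDP and 7.16, 7.10 and 7.51 in PreDP. This was a 29.6-fold rise (adjusted p = 5.17e-06). Ikzf2 (Helios), a zinc finger factor of the Ikaros family, was at 13.27, 13.27 and 13.09 in PostDP and 10.67, 11.12 and 10.86 in PreDP. Ikzf4 (Eos) was at 7.89, 7.82 and 7.67 in PostDP and 6.47, 6.42 and 6.58 in PreDP. Both were separated between the groups by more than 1 log2 unit, while Ikzf1 and Ikzf3 changed by 0.59 (95% interval 0.31 to 0.88) and 0.80 (95% interval 0.49 to 1.11). Helios and Eos belong to the list of regulatory T cell genes, of which 5 of 10 tested rose and 1 fell. The summed signal of that list was 13289 to 15133 in PostDP and 6447 to 7509 in PreDP. In PostDP Ikzf2 itself, at 13.09 to 13.27, had its highest signal, with every other gene at or below 10.47. The sum thus largely repeats the rise of Ikzf2 and is no separate measure of the list. Foxp3, the defining gene of the list, lay below the array medians, at 6.17, 5.88 and 6.74 in PostDP and 5.75, 6.45 and 6.35 in PreDP, and was not tested.

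Inhibitors of E proteins were among the rises of this family. Id2, an inhibitor of E proteins, was at 12.27, 12.20 and 12.50 in PostDP and 9.60, 9.05 and 8.76 in PreDP. Id3, known as a target of EGR factors downstream of the receptor, was at 12.81, 12.84 and 13.18 in PostDP and 11.94, 11.28 and 11.34 in PreDP. The rises were 3.19 ± 0.22 (SE) and 1.43 ± 0.21 (SE). Among the E proteins themselves, Tcf12 (HEB) changed by -0.51 (95% interval -0.83 to -0.19), while Tcf3 (E2A) had a difference of -0.02 (95% interval -0.47 to 0.42) and did not pass. Myc was at 9.25, 9.86 and 10.19 in PostDP and 8.42, 8.33 and 8.60 in PreDP, a rise of 1.32 ± 0.24 (SE). Among MAX partners that oppose it, Mxi1 and Mxd4 fell by 0.99 ± 0.16 (SE) and 0.83 ± 0.13 (SE). Mnt, another of them, rose by 0.70 ± 0.15 (SE), a call lost with the mean of its probe sets (0.43). The basic helix-loop-helix list as a whole had 4 genes that rose and 8 that fell of 31 tested. The 8 became 2 without PostDP replicate 2 and 3 without PostDP replicate 1, PostDP replicate 3 or PreDP replicate 2.

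In the bZIP list 7 of 27 genes rose and 5 fell; without PostDP replicate 1 or 2, without PreDP replicate 2 or with arrays centred, 4 rose. Batf, an AP-1 subunit that pairs with JUN proteins, was at 10.38, 10.29 and 10.33 in PostDP and 8.59, 8.44 and 7.71 in PreDP. Fosb, another AP-1 subunit, was at 8.63, 8.58 and 8.19 in PostDP and 6.84, 7.17 and 6.80 in PreDP. The PostDP arrays stood above the PreDP arrays for both. Ier2, an immediate early gene, was at 11.61, 12.11 and 11.95 in PostDP and 10.10, 10.03 and 9.84 in PreDP. Genes of tissue stress and dissociation overlap with these: 6 of 20 tested members of that list rose and none fell in the limma fit (10 and 1 at an unadjusted p under 0.05), with a summed signal of 84732 to 103258 in PostDP and 56503 to 72834 in PreDP. Fos, Dusp1, Gadd45g and Hspa1b of that list, with differences of 1.19, 1.41, 0.63 and 0.82, did not pass without a block. With the replicate number as a block they passed. So did Jund, with a difference of -0.56. Replicate 1 was highest within both groups for Jun, at 11.44, 8.50 and 8.11 in PostDP and 10.93, 9.07 and 8.23 in PreDP, a gene that did not pass and was picked after its values were seen. The part of cell handling in the AP-1 changes was not tested.

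**Figure D2:**
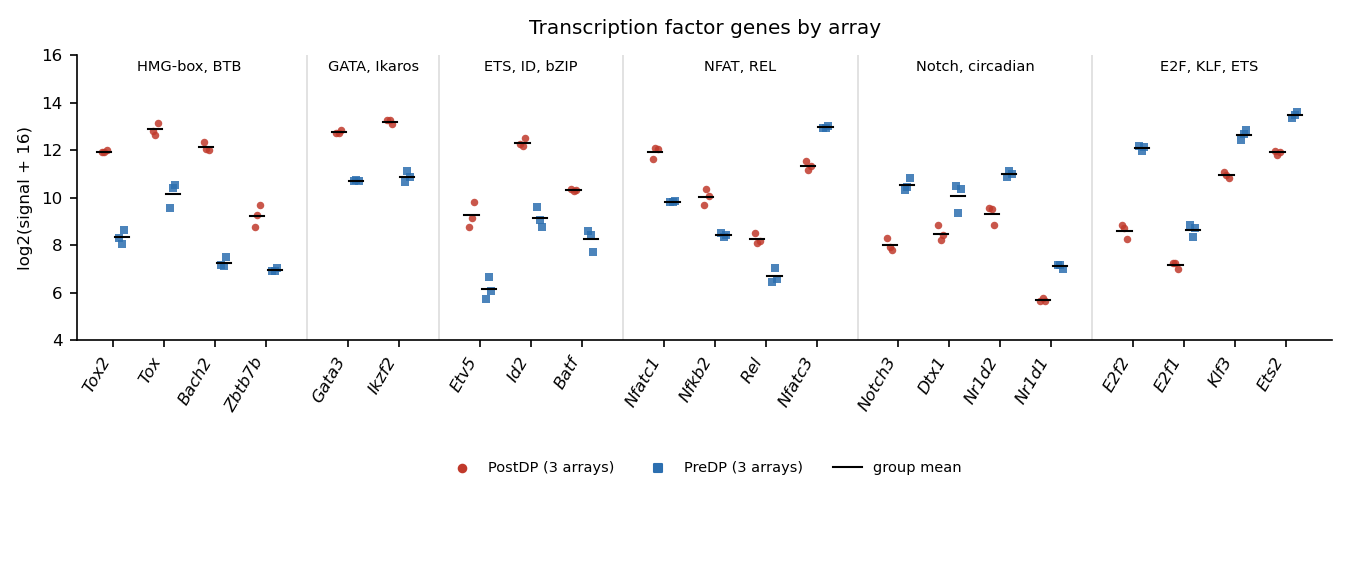
Level of transcription regulator genes on each array, as log2(signal + 16), with the 3 PostDP arrays as red circles, the 3 PreDP arrays as blue squares and group means as lines. Genes from Tox2 to Rel are higher in PostDP and those from Nfatc3 to Ets2 are lower, without overlap between the groups in any of them.

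Genes of the Notch pathway and of the circadian clock were among those that fell. Notch3, induced by pre-T cell receptor signals, was at 8.28, 7.93 and 7.78 in PostDP and 10.33, 10.45 and 10.84 in PreDP. Dtx1, a Notch target that encodes the ubiquitin ligase Deltex, was at 8.84, 8.204 and 8.42 in PostDP and 10.48, 9.35 and 10.36 in PreDP. They fell by 2.54 ± 0.19 (SE) and 1.57 ± 0.31 (SE), and Notch1 changed by -1.09 (95% interval -1.45 to -0.74). Of the 24 RUNX, GATA, MYB and Ikaros factors, the list that holds these Notch genes, 7 rose and 7 fell, and 3 rose with the mean of probe sets. Notch3 and Dtx1 also belong to the list of double-negative thymocytes and CD8 precursors, where 2 of 9 tested genes rose and 3 fell. Its summed signal was 4031 to 4438 in PostDP and 6291 to 8481 in PreDP. Ptcra, the gene with its highest signal in PreDP, changed by -4.88. The part of such cells in the Notch changes was not tested. Among nuclear receptors, the clock repressors Nr1d1 (REV-ERBα) and Nr1d2 (REV-ERBβ) fell by 1.42 ± 0.13 (SE) and 1.70 ± 0.21 (SE); with the mean of its probe sets Nr1d2 changed by -0.78. Nr1d1 was at 5.66, 5.79 and 5.63 in PostDP, below the array medians, and 7.16, 7.16 and 7.01 in PreDP. The clock output genes Tef and Dbp, both bZIP factors, fell by 1.08 ± 0.17 (SE) and 1.06 ± 0.20 (SE). The time of day at which the thymi were taken is not given in the sources used here.

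Of the 13 E2F and DP factors tested, 4 fell and none rose in the limma fit, and at an unadjusted p under 0.05 the counts were 6 lower and 1 higher. E2f2, a factor of S-phase entry, was at 8.84, 8.72 and 8.25 in PostDP and 12.16, 11.96 and 12.15 in PreDP, an 11.2-fold difference (adjusted p = 2.38e-05). E2f1 was at 7.23, 7.27 and 6.999 in PostDP and 8.86, 8.36 and 8.70 in PreDP. Neither overlapped between the groups. Ets2, a factor active downstream of ERK, was at 11.98, 11.81 and 11.94 in PostDP and 13.36, 13.47 and 13.61 in PreDP and fell by 1.57 ± 0.13 (SE). In the same ETS list Etv5 rose by 3.11 ± 0.31 (SE) (1.72 with the mean of its probe sets), and 4 of 15 members rose in all. Xbp1, the factor of the unfolded protein response, was at 11.78, 12.09 and 12.05 in PostDP and 12.91, 13.20 and 13.25 in PreDP. Some factors that thymocytes need throughout did not pass, with differences of 0.01 (95% interval -0.43 to 0.45) for Bcl11b, 0.08 (95% interval -0.38 to 0.54) for Satb1 and 0.09 (95% interval -0.25 to 0.43) for Foxo1.

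IRF genes showed small differences that depended on scaling. Irf1, Irf7, Irf8, Irf9 and Stat6 were called higher, with changes of 0.84, 0.87, 0.68, 0.64 and 0.59 (95% interval 0.29 to 0.90). With arrays centred on their medians none of the 13 tested IRF and STAT genes was called higher. Without PreDP replicate 2 the count was 1, without PostDP replicate 1 it was 2, and without PostDP replicate 2, PostDP replicate 3 or PreDP replicate 3 it was 3. Stat4, which carries the IL-12 signal, was at 8.65, 8.96 and 8.79 in PostDP and 9.16, 9.69 and 9.65 in PreDP, a lower level that did not pass without any 1 array other than PreDP replicate 1.

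Surface molecules showed the largest share of calls of the 4 kinds, in lists chosen with earlier results of these data known. Of 361 listed genes 329 were measured and 255 tested, of which 82 were higher (32.2%) and 51 lower (20%). The median change was 0.17. Receptors for costimulation, adhesion and G protein signals gave 18, 16 and 16 of the rises, and genes for the coreceptors, semaphorin receptors and several ion channels were among the falls.

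Among genes of the T cell receptor complex, those that modulate the receptor differed between the groups, and its signalling chains did not pass the test. The differences were 0.05 (95% interval -0.34 to 0.44) for Cd3d, -0.01 (95% interval -0.38 to 0.36) for Cd3e, 0.08 (95% interval -0.34 to 0.50) for Cd3g and -0.01 (95% interval -0.31 to 0.28) for Cd247. Cd5, an inhibitory coreceptor whose level follows the strength of the selecting signal, was at 14.08, 14.08 and 14.13 in PostDP and 11.35, 11.12 and 10.75 in PreDP. It rose by 3.03 ± 0.17 (SE), an 8.15-fold difference (adjusted p = 3.29e-05). Cd2, an adhesion and costimulation receptor, was at 13.72, 13.70 and 13.52 in PostDP and 11.26, 10.21 and 10.14 in PreDP. Cd6, a relative of Cd5, was at 13.09, 12.96 and 12.81 in PostDP and 11.74, 11.56 and 11.34 in PreDP, and Cd28, the main costimulatory receptor, at 14.05, 14.05 and 14.13 in PostDP and 12.23, 12.80 and 12.87 in PreDP. All 4 were separated between the groups. Cd8b1 fell by 1.15 ± 0.19 (SE), next to falls of 1.21 for Cd8a and 1.17 for Cd4, so that the coreceptor genes were lower by similar amounts. Themis, a protein of the double-positive stage that tunes receptor signals, changed by -0.998 (95% interval -1.30 to -0.70). The list had 5 higher and 9 lower genes of 20, and 5 lower without PostDP replicate 2 or 3.

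Of the 29 costimulatory and inhibitory receptors tested, 18 rose and 4 fell, with a median change of 0.96. Inhibitory receptors were among both. Btla, the receptor for HVEM, was at 11.12, 11.52 and 11.64 in PostDP and 6.42, 7.38 and 6.84 in PreDP. Pdcd1, which encodes PD-1, was at 10.24, 10.67 and 10.39 in PostDP and 7.49, 6.40 and 6.30 in PreDP. The changes were 4.55 ± 0.26 (SE) and 3.71 ± 0.31 (SE). The genes of its ligands rose too. Cd274 (PD-L1) was at 9.72, 9.83 and 9.74 in PostDP and 7.63, 7.89 and 7.55 in PreDP, a change of 2.07 (95% interval 1.74 to 2.40), and Pdcd1lg2 (PD-L2) changed by 2.79 (95% interval 2.26 to 3.32). Cd200, an inhibitory ligand, and its receptor Cd200r1 changed by 3.27 (95% interval 2.59 to 3.95) and 1.95 (95% interval 1.49 to 2.41). Icos, a costimulatory receptor of the CD28 family, changed by 1.80 (95% interval 1.49 to 2.11), and Cd40lg, through which CD4 cells help B cells, by 1.81 (95% interval 0.91 to 2.72). Lag3 was the opposite case among inhibitory receptors, at 5.52, 6.10 and 5.51 in PostDP, below the array medians, and 7.68, 7.67 and 7.19 in PreDP. Fas, the death receptor, was at 10.19, 9.93 and 9.79 in PostDP and 10.97, 11.07 and 11.19 in PreDP and fell by 1.11 ± 0.15 (SE). Ctla4 and Tnfrsf18 (GITR), both high in regulatory T cells, did not pass, with differences of -0.18 (95% interval -1.13 to 0.76) and -0.32 (95% interval -0.69 to 0.05).

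Adhesion and guidance genes divided, with 16 of 47 higher and 10 lower, or 6 lower with the mean of probe sets. Cd53, a tetraspanin of leukocytes, was at 12.97, 13.09 and 13.06 in PostDP and 9.10, 8.74 and 9.09 in PreDP. It rose by 4.07 ± 0.15 (SE), adjusted p = 5.65e-06. Sema4a, a semaphorin, was at 10.43, 10.51 and 10.29 in PostDP, against 6.28, 5.71 and 5.23 in PreDP, where all 3 values were below the array medians. Itgb3, an integrin β chain, was at 8.98, 8.28 and 8.52 in PostDP and 4.68, 6.07 and 4.81 in PreDP, and Cd44, the hyaluronan receptor, changed by 1.29 (95% interval 0.87 to 1.71). Plxnd1, a semaphorin receptor that guides CD69+ thymocytes toward the medulla, was at 10.99, 10.61 and 10.64 in PostDP and 12.29, 12.30 and 12.33 in PreDP and fell by 1.56 ± 0.15 (SE). Nrp1, a coreceptor for class 3 semaphorins, was at 9.21, 8.85 and 9.36 in PostDP and 11.05, 10.98 and 11.62 in PreDP and fell by 2.08 ± 0.22 (SE). Neither receptor gene overlapped between the groups.

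Cytokine receptor genes numbered 7 higher and 6 lower of 32. Il7r, the receptor chain for IL-7 that double-positive cells switch off, was at 9.83, 10.37 and 10.56 in PostDP and 5.35, 6.31 and 6.35 in PreDP. It rose by 4.25 ± 0.31 (SE), adjusted p = 9.10e-05. Il17rb, a receptor chain for IL-25, was at 11.49, 11.42 and 11.73 in PostDP and 8.63, 8.80 and 8.56 in PreDP. Crlf2, the receptor chain for TSLP that pairs with Il7r, was at 10.56, 10.97 and 10.55 in PostDP and 9.35, 9.27 and 8.83 in PreDP. Ifngr1, a chain of the interferon-γ receptor, was at 11.32, 11.52 and 11.27 in PostDP and 12.43, 12.85 and 12.67 in PreDP, with no overlap, and fell by 1.28 ± 0.16 (SE). Tgfbr2 rose by 1.19 ± 0.12 (SE) on 1 probe set, but the mean of its probe sets had a difference of 0.56 that did not pass. The 6 lower genes became 3 without PostDP replicate 3 or PreDP replicate 2.

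Of the 32 chemokine and other G protein-coupled receptors tested, 16 rose and 6 fell, with a median change of 0.62. Gpr174, a receptor for lysophosphatidylserine, was at 12.63, 12.27 and 12.66 in PostDP and 8.40, 8.84 and 8.64 in PreDP. Gpr65, a proton sensor, was at 10.95, 11.17 and 11.54 in PostDP and 7.68, 7.74 and 8.27 in PreDP. They rose by 3.89 ± 0.17 (SE) and 3.32 ± 0.22 (SE). The purinergic receptors split by subtype. P2rx7, which opens with high extracellular ATP, was at 8.90, 9.52 and 9.85 in PostDP and 6.23, 6.45 and 6.17 in PreDP, and P2rx4 changed by 0.78 (95% interval 0.44 to 1.11). P2rx1 was at 7.82, 7.48 and 7.34 in PostDP and 10.82, 10.67 and 10.38 in PreDP and fell by 3.08 ± 0.18 (SE), adjusted p = 3.61e-05. P2ry10, a lysophospholipid receptor despite its name, was at 10.73, 11.02 and 11.01 in PostDP and 12.57, 12.77 and 13.08 in PreDP. Cxcr4, which holds immature thymocytes in the cortex, changed by -0.77 (95% interval -1.26 to -0.29), while Ccr9 and S1pr1, receptors of thymic retention and exit, had differences of 0.12 (95% interval -0.33 to 0.56) and 0.72 (95% interval 0.16 to 1.29) and did not pass. With the replicate number as a block S1pr1 passed (limma, adjusted p = 0.0222).

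**Figure D3:**
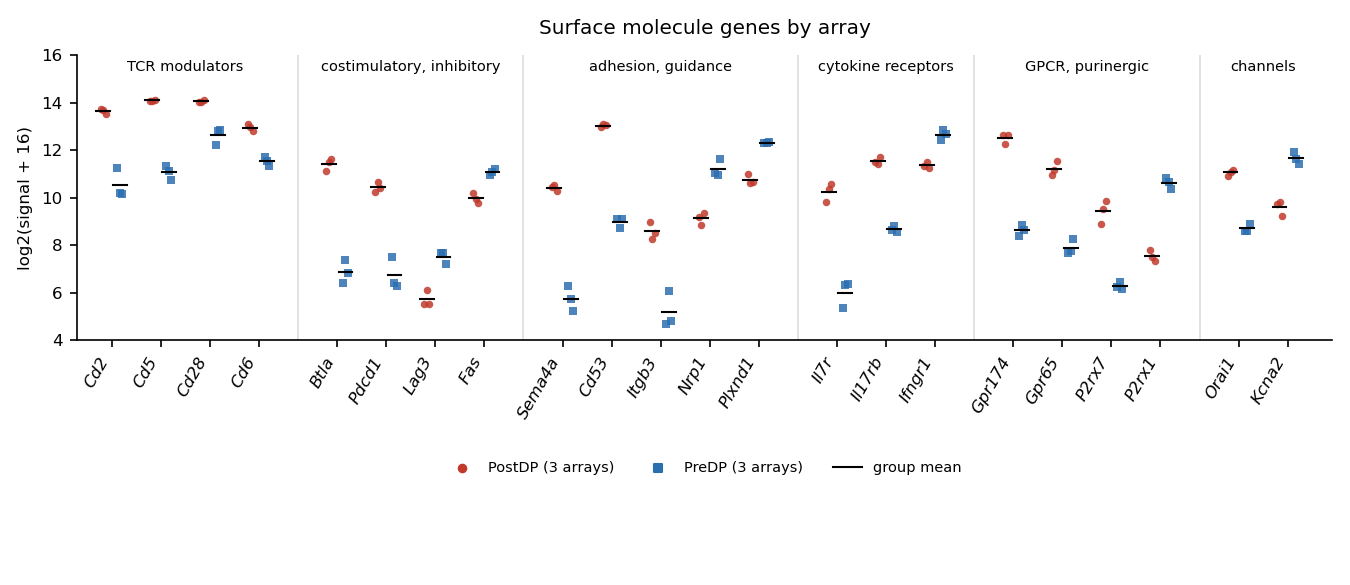
Level of surface molecule genes on each array, as log2(signal + 16), with the 3 PostDP arrays as red circles, the 3 PreDP arrays as blue squares and group means as lines. Cd2 to Cd6, Btla, Pdcd1, Sema4a, Cd53, Itgb3, Il7r, Il17rb, Gpr174, Gpr65, P2rx7 and Orai1 are higher in PostDP, and Lag3, Fas, Nrp1, Plxnd1, Ifngr1, P2rx1 and Kcna2 are lower.

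Of 42 genes tested that build or trim surface glycans, 10 rose and 7 fell. St3gal1, which caps core 1 O-glycans with sialic acid, was at 8.36, 8.42 and 8.99 in PostDP and 6.54, 6.78 and 7.27 in PreDP. St3gal2 was at 10.61, 10.25 and 10.74 in PostDP and 7.22, 6.94 and 7.46 in PreDP and rose by 3.33 ± 0.19 (SE). St6gal1, the sialyltransferase of N-glycans, rose by 2.72 ± 0.15 (SE) (1.67 with the mean of its probe sets). Galnt6, which starts O-glycans, was at 11.50, 11.76 and 11.71 in PostDP and 8.76, 8.69 and 8.68 in PreDP. B3gnt8, an enzyme that extends branched N-glycans, was at 6.06, 5.57 and 5.97 in PostDP, below the array medians, and 8.25, 8.51 and 8.49 in PreDP. Neu3, a sialidase that removes sialic acid from gangliosides, fell by 1.51 ± 0.23 (SE), and Cmah, which makes the glycolyl form of sialic acid, fell by 1.12 ± 0.23 (SE).

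Calcium entry genes moved in both directions. Orai1, the pore of store-operated calcium entry, was at 10.92, 11.10 and 11.17 in PostDP and 8.61, 8.61 and 8.88 in PreDP. It rose by 2.36 ± 0.14 (SE), adjusted p = 4.33e-05, whereas Orai2 changed by -0.62 (95% interval -0.99 to -0.24). The sensor Stim1 had a difference of -0.22 (95% interval -0.60 to 0.15) and did not pass. Itpr2, a calcium release channel of the endoplasmic reticulum, fell by 1.60 ± 0.12 (SE) (-0.94 with the mean of its probe sets). Scn4b, a sodium channel subunit studied in thymocyte selection, was at 7.45, 8.37 and 7.06 in PostDP and 10.13, 9.80 and 9.36 in PreDP. In this list 5 of 33 genes rose (15.2%) and 7 fell (21.2%), beside 10.8% and 12% of all genes. Without PostDP replicate 2 or with arrays centred 3 rose, against 8 with the replicate number as a block.

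In these mice without β2-microglobulin, 20 MHC class I and class I-like genes were tested. Of these, 5 rose (25%) and 2 fell (10%), beside 10.8% and 12% of all genes. The regulator Nlrc5 was 1 of the 5, and 13 genes did not pass. Nlrc5, the transactivator of MHC class I genes, was at 10.30, 10.01 and 10.11 in PostDP and 7.72, 7.91 and 7.90 in PreDP and rose by 2.29 ± 0.14 (SE), adjusted p = 4.33e-05. H2-K1 was at 12.70, 12.72 and 12.55 in PostDP and 12.08, 11.75 and 11.75 in PreDP. Mr1, which presents vitamin metabolites to MAIT cells, was at 9.10, 9.27 and 9.10 in PostDP and 10.55, 11.02 and 11.05 in PreDP and fell by 1.72 ± 0.17 (SE). Nlrc5 alone was called higher with arrays centred, and the 5 rises became 3 without any 1 array other than PreDP replicate 1, without which they became 8. Without PostDP replicate 3 or PreDP replicate 2, 1 gene fell. MHC class II genes and other genes of antigen-presenting cells were also measured, as a check on other cells. Of 10 tested genes of the macrophage and dendritic cell list 5 rose, among them Ctss at 9.81, 9.20 and 9.31 in PostDP and 5.91, 5.36 and 6.19 in PreDP and Cd74 at 9.33, 8.87 and 8.99 in PostDP and 7.55, 7.60 and 7.87 in PreDP. The list's summed signal was 8537 to 9700 in PostDP and 7692 to 9485 in PreDP, and 11 of its 21 measured genes were above the array median on fewer than 3 arrays. Its other rises were H2-Aa, H2-Eb1 and Lyz2, with changes of 1.62, 1.05 and 1.39. The rise of H2-Aa did not pass with 12 or all 15 arrays in the fit, and H2-Ab1, with a difference of -0.32, did not pass. The highest signals of that list were those of Ctsb and Cst3, which did not pass. The B cell list had a summed signal of 6219 to 6785 in PostDP and 12840 to 14320 in PreDP, and 2 of its 7 tested genes fell. Most of that sum was Ighm, at 12.17, 12.14 and 12.21 in PostDP and 13.47, 13.30 and 13.31 in PreDP. The fall of Ighm did not pass with the mean of its probe sets (-0.21). Cd79b, the other gene that fell, was at 8.79, 8.63 and 8.36 in PostDP and 10.83, 10.38 and 10.44 in PreDP, a change of -1.96. Ms4a1, Blk and Cd22 of the same list did not pass. The natural killer list had a summed signal of 2026 to 2226 in PostDP and 3597 to 5047 in PreDP, but 3 of its 6 tested genes rose (Nkg7, Ccl5 and Prf1, with changes of 2.32, 2.08 and 0.75) and 1 fell (Gzma, with a change of -2.62). Gzma had the highest signal of that list on all 6 arrays, at 9.02 to 9.30 in PostDP and 11.45 to 12.08 in PreDP. None of the 12 granulocyte genes was above the array median on 3 or more arrays. The part of other cells in the surface changes was not tested.

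Of 439 metabolic genes listed, 399 were measured and 342 tested, with 42 higher (12.3%) and 62 lower (18.1%). The share of rises was near the 10.8% of all genes, and it depended on scaling and on single arrays. With arrays centred 20 rose, and without PostDP replicate 2, PostDP replicate 3 or PreDP replicate 2 the counts were 27, 25 and 26. Without PostDP replicate 3 the lower genes numbered 39. Glycolysis had more rises than falls, and fatty acid oxidation, sterol and nucleotide genes had more falls than rises.

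Of the 29 genes of glycolysis and glucose transport tested, 10 rose and 3 fell, with a median change of 0.44 (6 and 2 with arrays centred). Aldoa, the aldolase, was at 12.21, 12.60 and 12.46 in PostDP and 11.08, 10.82 and 11.04 in PreDP. It rose by 1.44 ± 0.15 (SE), adjusted p = 5.38e-04. Hk2, the inducible hexokinase, was at 7.50, 8.10 and 8.30 in PostDP and 6.96, 6.45 and 6.98 in PreDP, and Eno2, an enolase, at 7.60, 7.83 and 8.04 in PostDP and 5.28, 5.85 and 6.40 in PreDP. Ldha, the lactate dehydrogenase chain of glycolytic cells, changed by 0.80 (95% interval 0.40 to 1.20) and Pfkp, a phosphofructokinase, by 1.13 (95% interval 0.77 to 1.497). Slc2a3, a high-affinity glucose transporter, was at 11.57, 11.52 and 11.57 in PostDP and 10.02, 10.001 and 10.07 in PreDP (a change of 0.91 with the mean of its probe sets). Slc2a1, another glucose transporter of T cells, had a difference of 0.52 (95% interval 0.14 to 0.89) and did not pass. Slc16a1, which exports lactate, was at 10.66, 11.03 and 10.98 in PostDP and 12.45, 12.55 and 12.52 in PreDP and fell by 1.62 ± 0.15 (SE). Pdk2, a kinase that closes pyruvate dehydrogenase, fell by 1.11 ± 0.13 (SE).

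In the tricarboxylic acid list 1 of 29 genes rose and 4 fell, or 2 fell without any 1 PostDP array. The 4 falls are 13.8% of the list, near the 12% of all tested genes. Idh1, the cytosolic isocitrate dehydrogenase, was at 8.55, 8.63 and 8.51 in PostDP and 9.38, 9.35 and 9.50 in PreDP, and its mitochondrial relative Idh2 fell by 1.63 ± 0.12 (SE) (-0.90 with the mean of its probe sets). Me2, the mitochondrial malic enzyme, was the gene that rose, at 10.35, 10.78 and 10.74 in PostDP and 9.65, 9.31 and 9.13 in PreDP. Of the 9 pentose phosphate genes tested 3 fell and none rose (limma), also 3 and 0 at an unadjusted p under 0.05. Pgls, the lactonase of its oxidative branch, was at 10.18, 9.92 and 9.73 in PostDP and 11.82, 11.21 and 11.10 in PreDP, H6pd fell by 1.42 ± 0.18 (SE), and Prps2, which makes the ribose donor of nucleotides, fell by 1.19 ± 0.13 (SE). In fatty acid oxidation 9 of 28 genes fell and 1 rose (Acad9, whose change was -0.0956 with the mean of its probe sets). Hadh, of the third step of β-oxidation, was at 11.23, 11.24 and 11.05 in PostDP and 12.74, 12.22 and 12.35 in PreDP and fell by 1.26 ± 0.17 (SE). Eci2, an enoyl isomerase, fell by 1.05 ± 0.16 (SE), and Cpt1a, which feeds fatty acids into mitochondria, had a difference of 0.32 (95% interval 0.00 to 0.64) and did not pass. The 9 became 2 to 5 without any 1 of the PostDP arrays, PreDP replicate 2 or PreDP replicate 3.

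Of 40 nucleotide synthesis genes tested 10 fell and 3 rose, and 27 did not pass. The 3 became 0 with arrays centred or without PostDP replicate 2, PostDP replicate 3, PreDP replicate 2 or PreDP replicate 3, 1 without PostDP replicate 1 and 8 without PreDP replicate 1. Tk1, the thymidine kinase of S phase, was at 7.08, 6.69 and 5.23 in PostDP and 10.50, 8.98 and 9.10 in PreDP. Dck, which salvages deoxynucleosides in thymocytes, was at 12.64, 12.47 and 12.42 in PostDP and 14.05, 14.02 and 13.86 in PreDP and fell by 1.47 ± 0.13 (SE). Dut, which removes dUTP, fell by 1.72 ± 0.27 (SE). Ada, the adenosine deaminase whose loss harms thymocytes, changed by -1.16 (95% interval -1.63 to -0.70). Cholesterol genes gave 7 falls and no rise among 25 in the limma fit (7 and 1 at an unadjusted p under 0.05, and 4 falls without any 1 of the PostDP arrays). Npc1, which moves cholesterol out of lysosomes, fell by 0.81 ± 0.15 (SE). Among synthesis enzymes, Mvk fell by 1.09 ± 0.24 (SE) and Idi1 fell by 1.02 ± 0.28 (SE), and both calls were lost without PostDP replicate 1, that of Mvk also without PostDP replicate 3 or with the mean of its probe sets (-0.59), and that of Idi1 also without PostDP replicate 2, PreDP replicate 1 or PreDP replicate 3. Hmgcs1 and Sqle, of the same pathway, had differences of 0.19 (95% interval -0.21 to 0.60) and -0.39 (95% interval -0.82 to 0.04) and did not pass. One-carbon metabolism had 6 rises and no fall among 18 in the limma fit (7 and 1 at an unadjusted p under 0.05), but 1 of the 6, Izumo1r, is a folate receptor relative that binds no folate, and 2 rose with arrays centred. Gcsh, of the glycine cleavage system, was at 10.30, 10.47 and 10.50 in PostDP and 9.77, 9.401 and 9.33 in PreDP, and Shmt2, the mitochondrial serine enzyme, changed by 0.86 (95% interval 0.44 to 1.28).

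Amino acid transport changed in both directions, with 11 of 36 genes higher and 8 lower (6 and 9 with arrays centred, and 6 higher without PreDP replicate 2). Slc7a11, the cystine and glutamate exchanger, was at 7.24, 6.47 and 6.34 in PostDP and 10.45, 11.52 and 10.86 in PreDP. It fell by 4.26 ± 0.32 (SE), a 19.2-fold difference (adjusted p = 1.10e-04), and replicates 2 and 3 of PostDP lay below their array medians. Slc6a19, a transporter of neutral amino acids, was at 9.54, 9.46 and 8.99 in PostDP and 11.67, 12.04 and 11.84 in PreDP. Slc43a1, another one, was at 9.21, 9.07 and 9.04 in PostDP and 10.78, 10.80 and 10.70 in PreDP. Slc7a5, the large neutral amino acid transporter that activated T cells induce, changed by 1.13 (95% interval 0.72 to 1.55), and its partner chain Slc3a2 by 0.49 (95% interval 0.19 to 0.79). Got1, the cytosolic aspartate aminotransferase, was at 9.72, 9.98 and 10.05 in PostDP and 8.07, 7.98 and 7.80 in PreDP and rose by 1.97 ± 0.15 (SE). In nutrient sensing and autophagy 9 of 45 genes fell. Deptor, an inhibitor of mTOR, was at 6.36, 6.57 and 6.90 in PostDP and 7.63, 7.67 and 8.15 in PreDP, and Rragd, a GTPase of lysosomal amino acid sensing, fell by 2.25 ± 0.21 (SE) (-1.35 with the mean of its probe sets). Mtor had a difference of 0.30 (95% interval 0.02 to 0.58) and did not pass. In the list of fatty acid synthesis and lipid remodelling 7 of 44 genes rose (15.9%) and 6 fell (13.6%), near the 10.8% and 12% of all genes. The rises numbered 3 with arrays centred and 4 without PostDP replicate 2 or 3. The falls numbered 2 or 3 without PostDP replicate 1, PostDP replicate 3 or PreDP replicate 2. Sgpl1, the sphingosine phosphate lyase, rose by 1.21 ± 0.12 (SE).

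**Figure D4:**
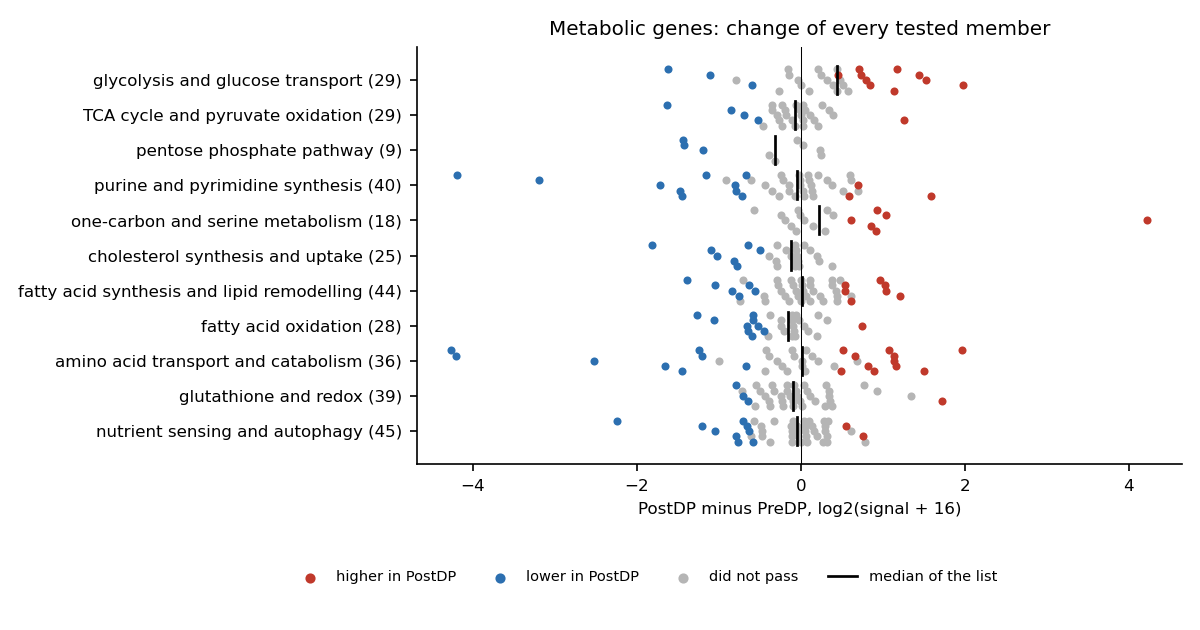
Change of every tested member of each metabolic list, as PostDP minus PreDP on the log2(signal + 16) scale, in red where higher, blue where lower and grey where the test was not passed, with the list's median as a black line. The median of glycolysis lies at 0.44, and the lower members of nucleotide synthesis and amino acid transport reach below -4, the falls of Rrm2, Prodh and Slc7a11. The far right point in one-carbon metabolism is Izumo1r at 4.22.

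The share of chromatin genes called was near that of all genes: 322 of 370 were measured and 305 tested, with 36 higher (11.8%, beside 10.8%) and 42 lower (13.8%, beside 12%). With arrays centred 20 were higher, and without PostDP replicate 1, 2 or 3 or PreDP replicate 2 the counts were 22, 22, 21 and 23. Acetyltransferases and their readers gave 2 rises among 31, and with the replicate number as a block also 2 falls.

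In the Polycomb list 7 of 33 genes rose and 3 fell, and 4 rose with arrays centred, without PreDP replicate 2 or 3 or without any 1 PostDP array. The 3 falls became 1 without PostDP replicate 1 or with the mean of probe sets. Bmi1, the PRC1 RING finger protein that sustains lymphocyte progenitors, was at 11.46, 11.59 and 11.55 in PostDP and 9.996, 9.96 and 9.89 in PreDP. It rose by 1.58 ± 0.12 (SE), adjusted p = 1.21e-04. Jarid2, a PRC2 cofactor, was at 12.56, 12.48 and 12.24 in PostDP and 11.17, 11.18 and 11.32 in PreDP. Bcor, of a variant PRC1 complex that works with BCL6, rose by 0.99 ± 0.17 (SE). Kdm2b, the CpG-binding subunit of the same variant complex, was at 12.32, 12.41 and 12.24 in PostDP and 11.25, 11.11 and 10.78 in PreDP and rose by 1.28 ± 0.16 (SE). These 4 genes had no overlap between the groups, which was common among all tested genes. Eed and Suz12, core subunits of PRC2, had differences of -0.18 (95% interval -0.52 to 0.15) and -0.14 (95% interval -0.57 to 0.29) and did not pass. The catalytic Ezh2 fell by 0.63 ± 0.15 (SE), a call lost without any 1 PostDP array.

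Remodeller genes gave 4 rises and 9 falls of 51, with 2 rises without any 1 PostDP array. Chd7, a CHD family remodeller, was at 8.45, 8.34 and 8.17 in PostDP and 4.30, 5.93 and 6.01 in PreDP, where all 3 arrays were below their medians. Chd3, an ATPase of the NuRD complex, was at 10.94, 11.26 and 11.25 in PostDP and 9.17, 9.41 and 9.38 in PreDP and rose by 1.83 ± 0.15 (SE), adjusted p = 1.50e-04. Smarca4 (BRG1), the ATPase of the BAF complex, was at 12.17, 12.01 and 12.03 in PostDP and 13.14, 13.11 and 13.06 in PreDP and fell by 1.03 ± 0.12 (SE). Its alternative Smarca2 (BRM) was at 10.87, 11.10 and 11.11 in PostDP and 9.75, 10.45 and 10.46 in PreDP, so the ATPases of that complex moved in opposite directions; the rise of Smarca2 did not pass without any 1 PostDP array. Hells, a remodeller needed for DNA methylation in dividing cells, fell by 2.59 ± 0.20 (SE) (-1.53 with the mean of its probe sets).

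DNA methylation genes moved both ways. The de novo methyltransferases Dnmt3b and Dnmt3a rose by 1.70 ± 0.19 (SE) (1.11 with the mean of its probe sets) and 0.69 ± 0.17 (SE), the second a call lost with arrays centred or without PostDP replicate 1, PostDP replicate 3, PreDP replicate 2 or PreDP replicate 3. Uhrf1, which brings the maintenance enzyme to replicated DNA, was at 10.17, 9.69 and 9.96 in PostDP and 12.82, 11.50 and 12.05 in PreDP and fell by 2.18 ± 0.32 (SE). Dnmt1, the maintenance enzyme, and the demethylation enzymes Tet2 and Tet3 did not pass, with differences of -0.45 (95% interval -0.93 to 0.03), 0.53 (95% interval -0.09 to 1.16) and 0.29 (95% interval -0.15 to 0.73). Corepressors differed gene by gene. Cbfa2t3 (ETO2), a corepressor that binds E proteins, was at 9.19, 8.32 and 8.44 in PostDP and 11.62, 11.41 and 11.59 in PreDP and fell by 2.89 ± 0.23 (SE), adjusted p = 1.40e-04. Hdac5, a signal-responsive class IIa deacetylase, was at 10.22, 10.21 and 10.64 in PostDP and 9.45, 9.64 and 9.54 in PreDP and rose by 0.81 ± 0.16 (SE). Its relative Hdac7, exported from the nucleus upon receptor signals, had a difference of -0.24 (95% interval -0.51 to 0.04) and did not pass. Kdm6b (JMJD3), an H3K27 demethylase of late thymocyte maturation, rose by 0.75 ± 0.12 (SE), and the arginine methyltransferases Prmt5 and Prmt2 rose by 0.85 ± 0.16 (SE) and 1.04 ± 0.17 (SE).

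**Figure D5:**
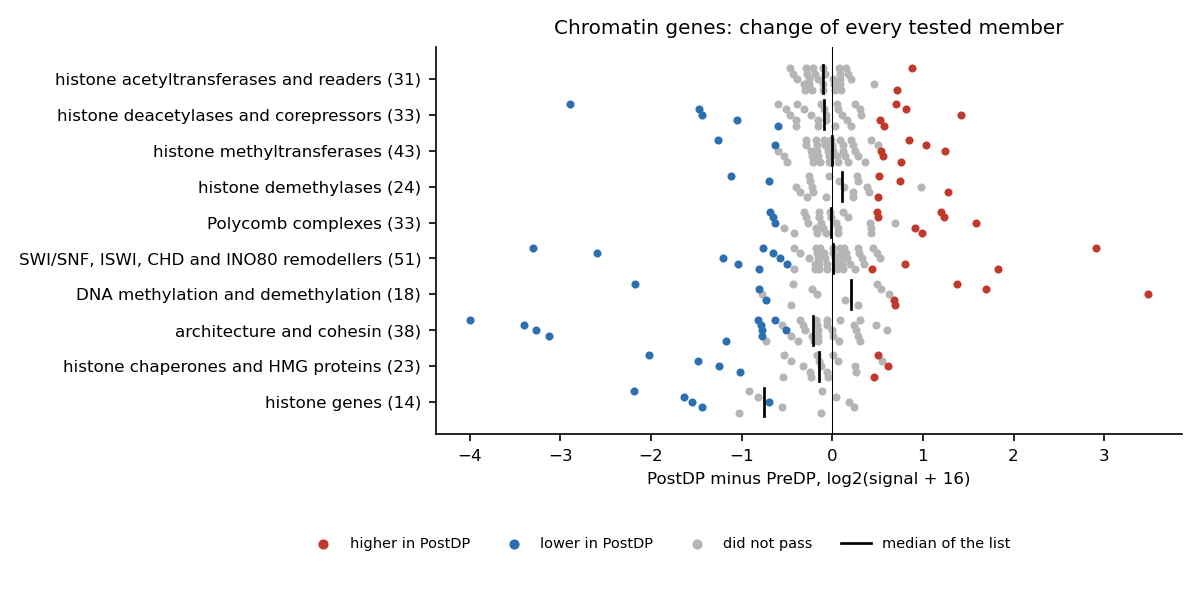
Change of every tested member of each chromatin list, as PostDP minus PreDP on the log2(signal + 16) scale, in red where higher, blue where lower and grey where the test was not passed, with the list's median as a black line. Most points lie within 1 unit of 0, and members below -3 are cohesin and condensin genes and Rad54l.

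Genes of chromosome architecture and histones were mostly lower where they were called. Of 38 architecture and cohesin genes 11 fell and none rose in the limma fit (15 and 2 at an unadjusted p under 0.05, and 7 falls without any 1 PostDP array). Cdca5 (sororin), which protects cohesin after replication, was at 7.48, 6.34 and 6.54 in PostDP and 11.28, 9.61 and 9.65 in PreDP. Ncapg2, of condensin II, was at 8.55, 7.17 and 6.79 in PostDP and 11.33, 10.39 and 10.58 in PreDP. Cdca5 fell by 3.39 ± 0.48 (SE) and Ncapg2 fell by 3.26 ± 0.45 (SE). Ctcf, the insulator protein, and Rad21, a cohesin ring subunit, had differences of -0.73 (95% interval -1.34 to -0.12) and -0.16 (95% interval -0.45 to 0.14) and did not pass. With the replicate number as a block Ctcf passed (limma, adjusted p = 0.00617). Of 48 listed histone genes only 16 were measured and 14 tested, of which 5 fell and none rose in the limma fit (8 and 0 at an unadjusted p under 0.05). The falls numbered 9 with the replicate number as a block and 3 without PostDP replicate 1, PreDP replicate 1 or PreDP replicate 3. H1f2, a linker histone, was at 9.51, 9.29 and 7.93 in PostDP and 11.42, 11.49 and 10.37 in PreDP. Asf1b, the histone chaperone of dividing cells, was at 8.73, 8.40 and 8.37 in PostDP and 11.16, 10.10 and 10.31 in PreDP and fell by 2.02 ± 0.27 (SE).

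The cell cycle list had 65 falls and 1 rise among 102 tested genes, beside 12% and 10.8% of all genes, and a median change of -1.22. Its median level per array was 8.87, 8.37 and 8.10 in PostDP and 10.38, 9.31 and 9.53 in PreDP, with replicate 1 highest in both groups. Without PostDP replicate 2 or 3 the falls numbered 37. Pole, the catalytic subunit of DNA polymerase ε, was at 6.62, 4.62 and 4.52 in PostDP and 9.37, 8.38 and 8.75 in PreDP. Cdc6, which licenses replication origins, was at 6.94, 5.78 and 4.33 in PostDP and 10.14, 9.27 and 9.72 in PreDP. Replicate 1 was also the highest PostDP array for these genes. Ccna2, the S-phase and mitotic cyclin, changed by -2.72 (95% interval -4.29 to -1.16) and the helicase subunit Mcm5 by -1.15 (95% interval -1.69 to -0.61). The D cyclins moved in opposite directions. Ccnd2 was the gene that rose, at 9.32, 9.47 and 9.58 in PostDP and 6.83, 6.95 and 6.76 in PreDP, by 2.61 ± 0.14 (SE). Ccnd3, the D cyclin of thymocyte expansion, changed by -1.53 (95% interval -1.82 to -1.24).

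Promoter windows (RefSeq, GRCm38.p6) are shown for named genes that fell and whose window holds both an E2F site and a CHR element. Of 6 such genes, from any list, the 4 with the largest changes are printed: E2f8, a repressor of the E2F family, Mki67, the Ki-67 antigen, and Cdca5 and Ncapg2 named above. Genes on the chromosome that carries Egr1 and Nfatc1 were left out of this search too. Capitals mark the E2F site, searched as TTCGCGC or as TTGGCGC or as TTCCCGC or as TTGCCGC, and TTTGAA (CHR, the element bound by the DREAM and MYB-MuvB complexes), on either strand. E2f8 lies at chr7:48881547-48881846 and Mki67 at chr7:135716330-135716629, both on the minus strand, and Cdca5 at chr19:6084847-6085146 and Ncapg2 at chr12:116405186-116405485, both on the plus strand.
E2f8: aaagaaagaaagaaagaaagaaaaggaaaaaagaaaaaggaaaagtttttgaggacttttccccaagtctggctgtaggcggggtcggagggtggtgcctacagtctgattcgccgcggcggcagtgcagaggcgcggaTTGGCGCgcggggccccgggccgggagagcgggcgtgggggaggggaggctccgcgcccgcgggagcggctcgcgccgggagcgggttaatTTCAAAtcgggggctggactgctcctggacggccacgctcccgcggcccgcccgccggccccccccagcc
Mki67: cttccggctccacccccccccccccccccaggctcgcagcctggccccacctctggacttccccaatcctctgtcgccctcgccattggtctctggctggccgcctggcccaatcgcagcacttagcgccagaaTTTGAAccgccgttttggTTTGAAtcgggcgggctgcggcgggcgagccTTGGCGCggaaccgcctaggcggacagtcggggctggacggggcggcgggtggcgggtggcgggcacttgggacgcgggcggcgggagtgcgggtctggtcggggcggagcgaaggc
Cdca5: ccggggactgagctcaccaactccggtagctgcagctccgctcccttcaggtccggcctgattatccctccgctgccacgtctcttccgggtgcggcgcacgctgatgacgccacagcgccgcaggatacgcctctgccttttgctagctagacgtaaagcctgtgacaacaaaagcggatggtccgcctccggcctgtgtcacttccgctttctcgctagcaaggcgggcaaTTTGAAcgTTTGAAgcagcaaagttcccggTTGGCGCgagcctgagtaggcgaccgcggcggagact
Ncapg2: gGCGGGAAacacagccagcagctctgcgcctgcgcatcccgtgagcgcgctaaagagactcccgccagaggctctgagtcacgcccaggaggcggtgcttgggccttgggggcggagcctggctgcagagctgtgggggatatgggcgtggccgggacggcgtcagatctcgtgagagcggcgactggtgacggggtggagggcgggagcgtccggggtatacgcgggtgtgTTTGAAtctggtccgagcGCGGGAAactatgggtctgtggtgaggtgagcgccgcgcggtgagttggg
Of the 82 tested cell cycle genes with a window 41.5% held an E2F site and 35.4% a CHR element, and of 31 architecture and cohesin genes 51.6% and 35.5%. Over the 8701 tested genes with a window the shares were 17.5% for E2F and 11.8% for CHR, and over the 1045 that fell 19.9% and 13.6%.

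Signalling genes near the receptor gave 22 rises and 8 falls of 66 (14 and 8 with arrays centred, and 5 falls without PostDP replicate 3). Sh3bp2, an adaptor for SYK family kinases and phospholipase C, was at 11.01, 11.12 and 11.13 in PostDP and 7.82, 7.48 and 7.11 in PreDP. It rose by 3.62 ± 0.19 (SE), adjusted p = 2.43e-05. Rasgrp4, a Ras exchange factor best known in mast cells, was at 7.82, 8.07 and 7.66 in PostDP and 4.80, 5.11 and 5.14 in PreDP, below the array medians. Ubash3b (STS-1), a phosphatase that acts on ZAP-70, was at 8.47, 8.89 and 8.41 in PostDP and 6.94, 6.89 and 6.37 in PreDP, and Ptpn6 (SHP-1), another inhibitory phosphatase, changed by 1.31 (95% interval 0.92 to 1.69). Zap70 changed by 0.59 (95% interval 0.26 to 0.92), and its relative Syk, used by the pre-T cell receptor, was at 7.76, 8.33 and 8.25 in PostDP and 9.35, 9.72 and 9.33 in PreDP. The kinases thus moved in opposite directions in this fit, although the fall of Syk did not pass with 12 or all 15 arrays in the fit. Dgke, a diacylglycerol kinase, was at 9.30, 9.11 and 8.57 in PostDP and 11.01, 11.52 and 11.61 in PreDP, and Pik3ip1, an inhibitor of PI3 kinase, at 10.68, 10.57 and 10.35 in PostDP and 11.96, 11.98 and 12.04 in PreDP. They fell by 2.39 ± 0.24 (SE) and 1.46 ± 0.14 (SE). Lat, the central adaptor, had a difference of -0.48 (95% interval -0.84 to -0.11) and did not pass, but did with the replicate number as a block (limma, adjusted p = 0.0329).

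Small GTPase regulators and cytoskeletal genes gave 25 rises and 10 falls of 79, and 11 and 9 with arrays centred; without PostDP replicate 2 the rises were 16, and without PostDP replicate 1 or 2 the falls were 6. Vim, the intermediate filament vimentin, was at 12.66, 12.78 and 13.23 in PostDP and 10.43, 10.62 and 10.94 in PreDP, a rise of 2.22 ± 0.20 (SE). Rapgef6, an exchange factor for the integrin activator RAP1, was at 12.62, 12.72 and 12.95 in PostDP and 10.56, 10.69 and 10.91 in PreDP. Evl, which extends actin filaments, was at 12.44, 12.39 and 12.60 in PostDP and 9.80, 9.44 and 9.86 in PreDP. Rgs3, which shortens G protein signals, rose by 2.39 ± 0.23 (SE), beside the rises of the G protein-coupled receptors. Among ubiquitin and SOCS genes, Ndfip1, which activates the ligase ITCH, was at 13.07, 13.22 and 13.12 in PostDP and 11.52, 11.56 and 11.44 in PreDP and rose by 1.63 ± 0.12 (SE). Socs3, an inhibitor of cytokine receptors, was at 8.201, 8.34 and 7.78 in PostDP and 9.81, 10.13 and 11.06 in PreDP and fell by 2.23 ± 0.32 (SE). The ubiquitin list as a whole had 8 rises (15.1%) and 7 falls (13.2%) of 53, near the 10.8% and 12% of all genes. There were 4 falls without PostDP replicate 2 and 3 without PreDP replicate 2.

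Of 35 apoptosis regulators tested 5 rose (14.3%) and 6 fell (17.1%), near the 10.8% and 12% of all genes. The survival gene Bcl2 and the death gene Bcl2l11 (BIM) had the widest rises of the list, 3.15 ± 0.17 (SE) and 2.02 ± 0.15 (SE). Bcl2l1, which encodes BCL-xL, the survival protein of the double-positive stage, was at 10.66, 10.60 and 10.60 in PostDP and 11.64, 11.63 and 11.61 in PreDP and fell by 1.01 ± 0.12 (SE), adjusted p = 8.52e-04. Bid, a BH3-only protein cut by caspase-8, was at 9.38, 9.67 and 9.44 in PostDP and 10.79, 10.41 and 10.49 in PreDP. Casp8 itself and the necroptosis kinase Ripk3 rose by 0.83 ± 0.14 (SE) and 1.10 ± 0.14 (SE). Mcl1 had a difference of 0.26 (95% interval -0.04 to 0.56) and did not pass. Among repair and recombination genes, 5 rose and 9 fell of 38 (3 rose with arrays centred, and 14 fell with the replicate number as a block). The shares were 13.2% higher and 23.7% lower, beside 10.8% and 12% of all genes. Dntt, the terminal transferase that adds bases at receptor gene joints, was at 12.36, 12.35 and 12.07 in PostDP and 14.49, 14.29 and 13.95 in PreDP and fell by 1.99 ± 0.18 (SE). Xrcc6 (Ku70), of end joining, was at 10.90, 10.49 and 10.23 in PostDP and 13.69, 13.32 and 13.11 in PreDP, and Lig4 changed by -1.28 (95% interval -1.60 to -0.96). Parp3, a polymerase that marks DNA breaks, was at 11.50, 11.66 and 11.62 in PostDP and 9.06, 9.24 and 9.30 in PreDP and rose by 2.39 ± 0.13 (SE). The RNA-binding proteins Zfp36l1 and Zfp36l2, which destabilise transcripts and restrain cell cycle entry in developing thymocytes, rose by 1.06 ± 0.13 (SE) and 1.22 ± 0.15 (SE), the second by 0.53 with the mean of its probe sets, which did not pass.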

How the data were processed

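RNA of sorted thymocytes, amplified in a single round per the labels' protocols, was hybridised to mouse expression arrays, 1 per sample. The values are the deposited intensity per probe set on a linear scale, 1 value for each of 45101 probe sets. The mean after trimming 2% at each end was the same on every array, and no source used here names the summarisation algorithm or the background correction. Per the deposited annotation, updated to current symbols through Entrez numbers for 34741 probe sets, 34945 probe sets had 1 gene, 932 several and 9160 none, beside 64 controls. Each of 18193 genes took its probe set with the highest mean, and 10657 genes above the array median on at least 3 of the 6 arrays were tested. Of 2074 list genes, 190 had no such probe set and were not analysed here.

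Signals were set to log2(signal + 16), and PostDP was compared with PreDP on their 6 arrays with limma 3.58.1 in R 4.3.3 (lmFit and eBayes, 4 residual degrees of freedom, Benjamini-Hochberg over all tested genes, adjusted p under 0.05). Every adjusted p in the text comes from this fit, unless a block is named. The number of arrays limits the precision. Named genes were the 12 largest rises and falls and up to 4 of each per list, by change. Members and lists were chosen with earlier results of these data known.

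Samples of the same replicate number deviated together from their group means (r = 0.37, 0.28 and 0.45 for numbers 1, 2 and 3, against -0.32 to -0.09 between other numbers), so the numbers pair the samples. The fit given in the text has no block, and a fit with the number as a block was an alternative. It is printed where it changed the call of a gene described or moved the count of a list described by over 1.5 times. The lists of other cells and of stress genes were not counted under the alternatives. The other alternatives were the arrays in the fit, the filter, the normalization, the added constant, the probe set rule, eBayes options, array weights and leaving out each array. Scan dates were not used here, so scan batches were not examined. Promoter windows (250 bases before to 50 after a start) came from RefSeq tables of GRCm38.p6 for 258 of 325 named genes. The search for windows to print left out genes on the chromosome that carries Egr1 and Nfatc1.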

Additional observations from a re-analysis of the deposited data

How the results depend on the processing

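With the replicate number as a block, 1453 genes were higher and 1612 lower, against 1146 and 1277 without it. Of the 324 named and tested genes only Atic lost its call under this block, and the counts of lists that it moved by over 1.5 times are printed beside them for the lists described, apart from counts of 0 or 1, which it raised by 1 in some lists. Centring each array on its median gave 647 higher genes and kept 1783 of the 2423 calls, or 73.6%. It gave 20 higher metabolic genes, 20 higher chromatin genes and 41 higher signalling genes. Without a filter on dim genes there were 838 lower genes, 27 higher metabolic genes, 22 higher chromatin genes and 65 lower signalling genes, with 18193 genes tested instead of 10657. Leaving out each array in turn gave 735 to 1195 higher and 784 to 1270 lower genes, 25 to 47 higher and 39 to 60 lower metabolic genes, 21 to 39 higher chromatin genes and 65 to 98 lower signalling genes. Counts for transcription factors and surface molecules stayed within 1.5 times of the value given under every alternative. Among named genes, 45 lost their call with all 15 arrays in the fit, 53 without a filter, 35 with arrays centred, 33 of 310 with the mean of all probe sets and 16 to 51 without 1 array. Acad9 changed sign with the mean of its probe sets (-0.0956). Xist, which marks female samples and did not pass, was at a positive difference in the comparison and ranged from -1.84 to 2.38 when arrays were left out, with -0.809 without PostDP replicate 1, -0.677 without PostDP replicate 3 and the lowest value without PreDP replicate 2. Apart from the smaller or larger number of genes or arrays, the cause was not tested. The number of arrays and the floor of the scale limit what can be said of genes near or below the array medians, whose changes are compressed.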

Other observations

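Several genes outside the lists also differed widely, and they were picked after their values were seen. Smad7, an inhibitor of TGF-β signalling, was at 8.204, 8.13 and 8.25 in PostDP and 4.76, 6.28 and 6.55 in PreDP. Nfkbiz, an IκB family member that acts in the nucleus, was at 12.05, 12.10 and 12.04 in PostDP and 9.41, 10.16 and 10.05 in PreDP. Dusp6, the phosphatase of ERK, was at 11.41, 11.64 and 11.89 in PostDP and 9.55, 9.76 and 9.48 in PreDP. These genes were higher in PostDP without overlap, with changes of 2.33, 2.19 and 2.05. Itm2a, a membrane protein known to rise during positive selection, was at 14.76, 14.52 and 14.52 in PostDP and 11.43, 11.39 and 11.53 in PreDP. Plk3, a stress-responsive kinase, was at 8.78, 9.04 and 8.82 in PostDP and 4.54, 4.91 and 4.66 in PreDP. Chst15, a sulfotransferase of chondroitin sulfate, was at 9.86, 10.17 and 9.99 in PostDP and 4.94, 7.56 and 5.24 in PreDP.

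Genes that fell outside the lists included Papss2, which makes the sulfate donor, at 7.37, 7.29 and 6.90 in PostDP and 10.96, 10.78 and 10.63 in PreDP. The direction was thus opposite to that of Chst15. Arpp21, an RNA-binding phosphoprotein, was at 10.95, 10.32 and 9.98 in PostDP and 13.55, 13.45 and 13.41 in PreDP, and Sytl1, a vesicle tether of RAB27, at 5.85, 5.49 and 4.95 in PostDP and 9.36, 9.53 and 9.26 in PreDP. Spo11, known for meiotic DNA breaks, was at 9.95, 9.47 and 9.02 in PostDP and 11.73, 12.42 and 12.25 in PreDP. All of these passed the limma test, with changes of -3.60, -3.05, -3.95 and -2.66.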
